A study of Mus musculus with 12 samples.

Results

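The 7 genes described here, Sele, Plet1, Has1, Gfpt2, Edn1, Penk and Shisa3, were low or absent in resting mouse macrophages and rose under lipopolysaccharide (LPS), and they rose far less in MOPS medium than in HEPES medium. They were picked for that pattern from earlier results on the same libraries, so every value that shows it is a description with no test. They are 7 of the 54532 genes in the deposited table, and each of the 7 is among the 14506 genes with enough counts to be tested. The cells were peritoneal macrophages of the resident type, taken from C57BL/6 mice, held in DMEM for 24 h and given either no LPS or 10 ng/ml LPS for 2 h. The study asks, by its title, how an acid surrounding alters macrophages. The 4 groups, of 3 RNA-seq libraries each, were MOPS untreated, HEPES untreated, MOPS with LPS and HEPES with LPS. MOPS and HEPES are buffers, and the design text names pH 6.8 or 7.4 beside them. That MOPS goes with pH 6.8 rests on word order alone, and buffer and pH cannot be told apart here. The labels name no transgene, sort or pooling, and give neither the age nor the sex of the mice. Nor do they tell if each replicate was its own animal or culture, so the p-values measure only the spread between these libraries.

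LPS, a cell-wall component of Gram-negative bacteria, binds the Toll-like receptor TLR4 on macrophages. The receptor passes its signal through adaptor proteins to NF-kappaB and AP-1 transcription factors and to a second wave of interferon signalling, and many genes switch on within hours. The 7 genes encode unlike products. Sele (E-selectin) and Plet1 encode cell-surface proteins. Has1 makes the matrix sugar hyaluronan, and Gfpt2 makes a sugar precursor that such polymers are built from. Edn1 and Penk encode precursors of secreted peptides, endothelin-1 and the enkephalins. Shisa3 encodes a protein of the endoplasmic reticulum that holds back Wnt and FGF receptors on their way to the surface.

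Library totals ran from 20114613 to 24734853 counts. Values below are raw counts, or CPM (counts scaled to a common library size) adjusted by TMM, a factor for library composition, as mean ± SD (n = 3 libraries). Libraries are always given in the order of their replicate numbers: 1 to 3 for MOPS, 4 to 6 for HEPES, 7 to 9 for MOPS with LPS and 10 to 12 for HEPES with LPS. Of 10 macrophage markers, Adgre1, Csf1r, Cd68 and Lyz2 had at least 16998 counts in every library. The others had lower minima: 14395 counts for Cd14, 4562 for Itgam, 1112 for Mertk, 370 for Timd4, 119 for Icam2 and 66 for Fcgr1. Libraries of a group differed from each other by more than counting error (chi-square over its degrees of freedom 2.66 to 6.54), and each was counted as a library of its own.

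The promoters of the genes are shown for 4 members whose windows hold a motif of an LPS-activated or cAMP-activated factor. RefSeq's table (GRCm38.p6) held 6 of the 7, with Penk not among them. Each window is the 250 bases before the transcription start, read 5′ to 3′ on the gene's strand, and the printed part stops earlier where GENCODE vM21 places an exon (233 bases for Has1 and 249 for Shisa3). Motifs, CpG and base composition were counted over all 250 bases. Capitals mark the motifs TATAAA (gene's strand only), TGANTCA (AP-1 type), TGACGTCA (cAMP response element), GGNNNTTCC (Rel type) and the longer kappaB consensus, the last 4 on either strand. TGANTCA and TGACGTCA cannot match the same bases, and a kappaB match can overlap GGNNNTTCC.
Sele promoter: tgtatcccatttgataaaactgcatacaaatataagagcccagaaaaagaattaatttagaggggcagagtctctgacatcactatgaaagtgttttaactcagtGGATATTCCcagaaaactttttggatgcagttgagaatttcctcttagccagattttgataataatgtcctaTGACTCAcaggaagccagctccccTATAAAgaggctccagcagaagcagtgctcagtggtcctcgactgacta
Plet1 promoter: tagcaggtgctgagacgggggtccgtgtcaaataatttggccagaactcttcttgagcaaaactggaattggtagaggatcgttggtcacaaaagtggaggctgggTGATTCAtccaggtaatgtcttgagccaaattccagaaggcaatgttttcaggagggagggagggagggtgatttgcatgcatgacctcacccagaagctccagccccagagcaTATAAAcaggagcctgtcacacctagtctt
Has1 promoter: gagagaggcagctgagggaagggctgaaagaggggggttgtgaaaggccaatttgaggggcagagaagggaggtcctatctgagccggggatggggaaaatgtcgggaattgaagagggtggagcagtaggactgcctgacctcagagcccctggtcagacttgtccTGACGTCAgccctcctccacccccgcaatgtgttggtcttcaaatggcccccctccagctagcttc
Shisa3 promoter: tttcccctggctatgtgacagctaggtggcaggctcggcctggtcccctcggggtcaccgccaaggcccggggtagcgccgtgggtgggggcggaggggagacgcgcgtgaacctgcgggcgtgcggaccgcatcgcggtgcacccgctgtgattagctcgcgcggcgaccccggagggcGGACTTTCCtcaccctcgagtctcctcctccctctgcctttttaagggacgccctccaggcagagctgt
The printed Sele stretch is chr1:164047984-164048233 on the plus strand, and it holds GGATATTCC, TGACTCA and TATAAA. The Plet1 stretch is chr9:50494275-50494524 on the plus strand and holds TGATTCA and TATAAA. The Has1 stretch is chr17:17855206-17855438 on the minus strand and holds TGACGTCA. The Shisa3 stretch is chr5:67607633-67607881 on the plus strand and holds GGACTTTCC. No motif was held in common by the 6 windows. TGANTCA was in 3 of the 6 (Sele, Plet1 and Gfpt2) against 6.87% of 27025 promoters of the same length, TATAAA in 2 against 8.12%, GGNNNTTCC in 2 against 15.6%, TGACGTCA in 1 against 1.62% and the kappaB consensus in 1 (Gfpt2, in a run of G and C that matches on both strands) against 7.01%. The Edn1 window held none of these 5 motifs. The C/EBP-type motif TTNNGNAA, searched on both strands and not in capitals, was in 3 of 6 against 36.9%. The windows also differed in base composition: Sele had 40.4% G and C and 1 CpG, whereas Shisa3 had 69.6% and 25, beside medians of 52% and 6 over all promoters. A match is only a run of letters and was not tested as a binding site.

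Of the surface proteins, Sele, the adhesion molecule that catches rolling leukocytes and is best known from activated endothelium, showed the widest gap between the media. It had 350, 373 and 368 counts in HEPES with LPS and 15, 5 and 11 counts in MOPS with LPS. It had 0 counts in each untreated HEPES library and 0, 1 and 0 in untreated MOPS. In CPM this was 19.8 ± 0.71 against 0.538 ± 0.274 with LPS, a 36.8-fold lower level in MOPS (log2 -5.20 ± 0.43, standard error). The groups with LPS were far apart, and even the highest MOPS library, at 0.771 CPM, was a small part of the lowest HEPES library, at 19.1 CPM. Sele (ENSMUSG00000026582) lies on chromosome 1 from 164048234 to 164057677 in mm10, on the plus strand, with 14 exons in its principal transcript.

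Plet1 encodes a membrane-anchored protein described in placental and epithelial progenitor cells. It had 1738, 1862 and 1714 counts in HEPES with LPS and 639, 509 and 427 in MOPS with LPS. Without LPS it had 2, 4 and 0 counts in MOPS and 0 in each HEPES library. The level with LPS was 96.3 ± 2.40 CPM in HEPES and 26.8 ± 5.23 CPM in MOPS (log2 -1.84 ± 0.16), with no overlap. Plet1 (ENSMUSG00000032068) spans 50494525 to 50505482 on chromosome 9, plus strand. It shares 261 exonic bases with Plet1os on the opposite strand, which had 121 counts over all libraries against 6895 for Plet1.

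Has1, 1 of the 3 hyaluronan synthases, links glucuronic acid and N-acetylglucosamine into hyaluronan at the cell membrane. Its counts were 1171, 1043 and 1015 in HEPES with LPS and 469, 400 and 425 in MOPS with LPS. Untreated libraries had 3, 0 and 2 in MOPS and 0 in each of HEPES. The levels with LPS were 58.6 ± 4.51 CPM in HEPES and 22.2 ± 2.82 CPM in MOPS (log2 -1.40 ± 0.12). Has1 thus went from near nothing to a clear level in either medium, and its groups with LPS did not overlap. Has1 (ENSMUSG00000003665) lies on chromosome 17 from 17843323 to 17855205, minus strand, with 5 exons.

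Gfpt2 encodes an isoform of glutamine-fructose-6-phosphate transaminase, the entry enzyme of the hexosamine pathway. It was the most highly counted of the 7, with 2743, 2878 and 2425 counts in HEPES with LPS. In MOPS with LPS it had 429, 317 and 313 counts. It was detected in every untreated library, at 17, 16 and 22 counts in MOPS and 24, 26 and 21 in HEPES. With LPS it reached 146 ± 9.63 CPM in HEPES and 18.1 ± 3.61 CPM in MOPS, 8.05-fold lower (log2 -3.01 ± 0.17), with no overlap. Gfpt2 (ENSMUSG00000020363) lies on chromosome 11 from 49794178 to 49838613, plus strand, with 19 exons.

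Among the secreted peptides, Edn1 encodes the precursor of endothelin-1, a vasoconstrictor peptide that macrophages can also make. It had 215, 208 and 208 counts in HEPES with LPS against 13, 9 and 20 in MOPS with LPS. Resting counts were 0, 1 and 0 in MOPS and 1, 8 and 3 in HEPES. The levels with LPS were 11.4 ± 0.335 CPM and 0.732 ± 0.343 CPM, 15.6-fold lower in MOPS (log2 -3.97 ± 0.39). As with Sele, the groups with LPS did not overlap. Edn1 (ENSMUSG00000021367) lies on chromosome 13 from 42301476 to 42307990, plus strand, with 5 exons.

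Penk encodes proenkephalin, which is cut into opioid peptides. Like Gfpt2 it was detected in every untreated library, at 51, 57 and 56 counts in MOPS and 17, 14 and 16 in HEPES. With LPS it had 115, 81 and 123 counts in MOPS and 279, 255 and 256 in HEPES. In CPM it went from 2.07 ± 0.196 to 5.51 ± 1.52 in MOPS and from 0.551 ± 0.0541 to 14.3 ± 0.813 in HEPES. The order of the media therefore turned over: MOPS was 3.75-fold higher without LPS (log2 1.91 ± 0.11) and lower with it (log2 -1.38 ± 0.23), and the groups overlapped in neither state. Penk (ENSMUSG00000045573) lies on chromosome 4 from 4133531 to 4138819, minus strand, with 2 exons.

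Shisa3 had 212, 189 and 219 counts in HEPES with LPS and 66, 49 and 39 in MOPS with LPS. Its resting counts were 2, 2 and 4 in MOPS and 1, 4 and 0 in HEPES. The levels with LPS were 11.3 ± 1.09 CPM and 2.62 ± 0.675 CPM (log2 -2.10 ± 0.23), and the groups did not overlap. Shisa3 (ENSMUSG00000050010) lies on chromosome 5 from 67607882 to 67623552, plus strand, with 2 exons. It shares 138 exonic bases with Atp8a1 on the opposite strand, and without a stated strand setting reads there cannot be told apart. Atp8a1 went the other way, at 74.4 ± 1.8 CPM in untreated HEPES, 35.7 ± 2.13 in HEPES with LPS and 41.3 ± 1.91 in MOPS with LPS.

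**Figure D1:**
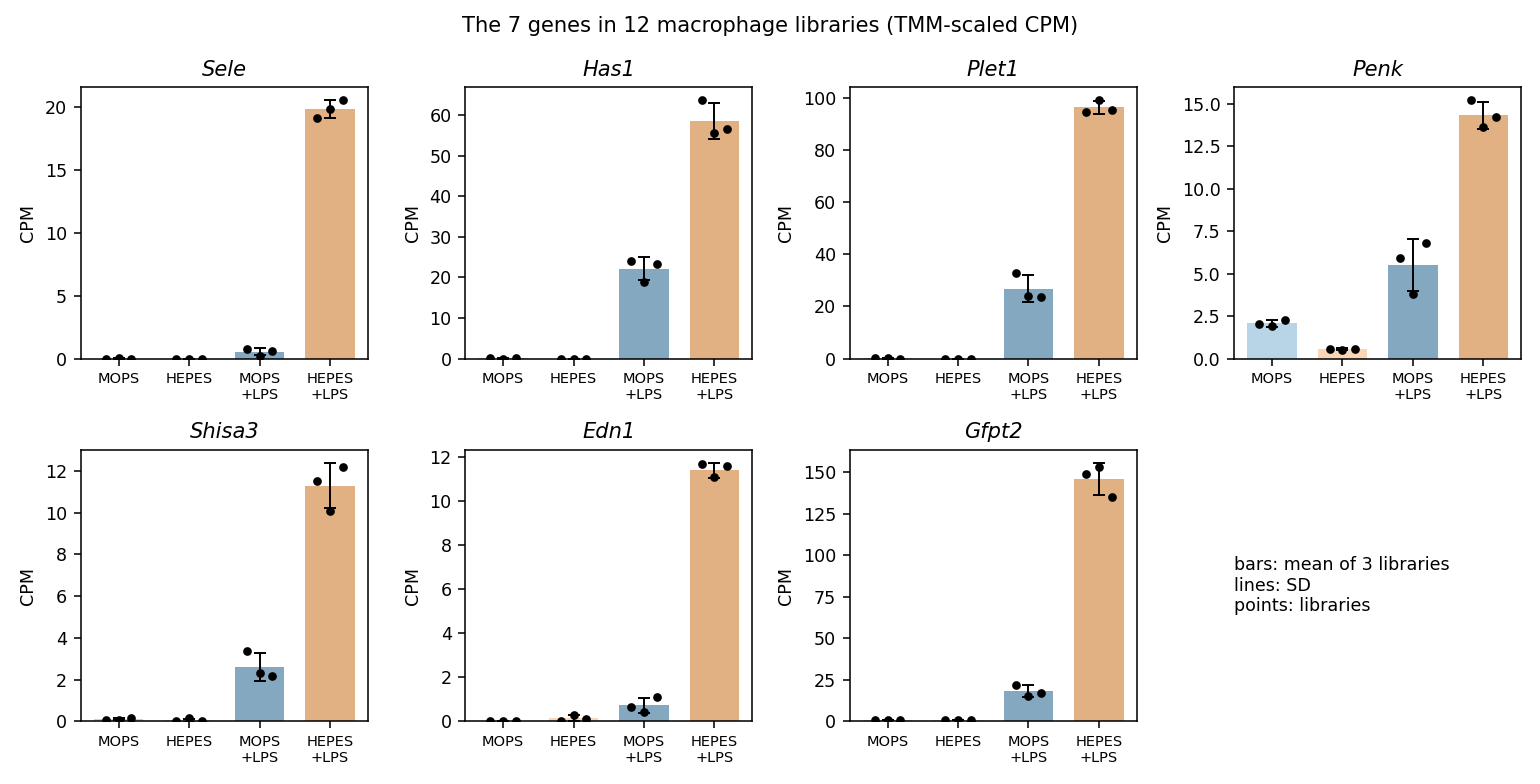
CPM (vertical axes, linear from 0) of the 7 genes in the 4 groups; bars are means of 3 libraries, lines the SD and points the libraries. In each panel the 3 HEPES libraries with LPS stand above the 3 MOPS libraries with LPS, and in the Penk panel the resting bars can be seen beside those with LPS, the MOPS bar being the higher.

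All 7 genes were lower in every MOPS library with LPS than in any HEPES library with LPS, a pattern that 29.6% of all genes tested also showed. The choice of members fixed this count, so nothing is read from it. The median log2 difference over the 7 was -2.10, from -5.20 in Sele to -1.38 in Penk, beside a median of 0.00 over all genes tested. Within the MOPS libraries with LPS, replicate 7 was the highest for 5 genes (Sele, Has1, Plet1, Shisa3 and Gfpt2) and replicate 8 the lowest for 5 (Sele, Has1, Penk, Edn1 and Gfpt2). The coefficient of variation there was 12.7% for Has1 to 50.9% for Sele, against 2.49% for Plet1 to 9.68% for Shisa3 in HEPES with LPS. Sele had only 5 to 15 counts per library in MOPS with LPS, and Edn1 (46.8%) 9 to 20. In HEPES with LPS each member had at least 189. The part of counting error in these spreads was not tested.

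Each of the 7 also rose in MOPS. All 7 were higher with LPS than without it in every library of MOPS, as 35.2% of genes tested were, and in every library of HEPES, as 36.2% were. Again the choice of members fixed these counts. In HEPES the rise was at least 2742-fold for Plet1, at least 1666-fold for Has1 and at least 563-fold for Sele, each set against 3 counts over the untreated group, which had 0. Shisa3 rose 195-fold (log2 7.60 ± 1.05), Gfpt2 175-fold (7.45 ± 0.09), Edn1 81-fold (6.34 ± 0.74) and Penk 26-fold (4.70 ± 0.09). The resting level of Edn1 and Shisa3 in HEPES leaned on replicate 5, without which their values were 7.31 and 9.32.

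In MOPS the rise was 379-fold for Plet1 (log2 8.57 ± 0.81), 332-fold for Has1 (8.38 ± 0.77), 25.8-fold for Gfpt2 (4.69 ± 0.27), 25.5-fold for Shisa3 (4.67 ± 0.48) and 2.67-fold for Penk (1.42 ± 0.24). These resting levels rest on few counts: Plet1 was at 7.98 without MOPS replicate 3 and 9.38 without replicate 2, and Has1 at 7.79 without replicate 2 and 9.23 without replicate 1. Sele and Edn1 had a single count in untreated MOPS, in replicate 2, so their ratios of 42.2 and 57.1 carry exact 95% counting intervals of 7.03 to 1718 and 9.71 to 2309. Those intervals cover counting error only. They hold the HEPES bound of Sele and the HEPES value of Edn1, so a smaller relative rise in MOPS was not detectable at this depth for these 2 genes, although their level with LPS was 36.8-fold and 15.6-fold lower. Without replicate 2 the untreated group had 0 counts, and the log2 values became lower bounds of 3.13 for Sele and 3.57 for Edn1. Scaling by total counts instead of TMM moved the median LPS change of all genes by -0.51 in MOPS and -0.58 in HEPES, and Penk in MOPS then stood at 0.90.

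**Figure D2:**
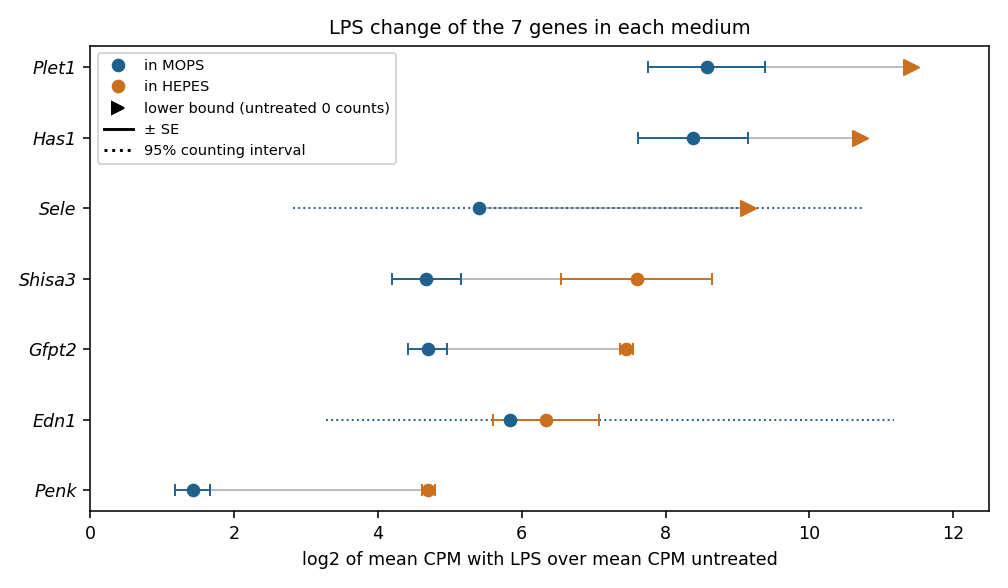
Log2 of mean CPM with LPS over mean CPM untreated (horizontal axis) for each gene, in MOPS (blue) and HEPES (orange); solid bars are standard errors, dotted lines exact 95% counting intervals and arrowheads lower bounds where the untreated group had 0 counts. Penk stands at 1.42 in MOPS and 4.70 in HEPES, whereas the 2 values of Edn1 lie within its counting interval.

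A measure that needs no resting ratio is the share of the HEPES rise that MOPS kept, the rise in CPM in MOPS divided by that in HEPES. Sele kept 2.66% ± 0.803 (standard error), Edn1 6.38% ± 1.76 and Gfpt2 12% ± 1.51. Shisa3 kept 22.5% ± 3.71, Penk 25% ± 6.46, Plet1 27.8% ± 3.16 and Has1 37.7% ± 3.25. The 7 genes thus ran over a wide range, from almost no rise to the 37.7% of Has1, and their median was 22.5%. In all, 281 genes, the 7 included, rose at least 8-fold in HEPES to at least 5 CPM. The other 274 kept a median of 68% (quartiles 44.8% and 87.8%), 88 of them under 50% and 41 at or over 100%. Ranked from the least kept, Sele was at 1, Edn1 at 3, Gfpt2 at 5 and Shisa3 at 19. Penk was at 27, Plet1 at 34 and Has1 at 59, and 52 of the other genes kept less than Has1. The choice of members set their low shares and ranks beside the other genes, so nothing is read from that gap.

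**Figure D3:**
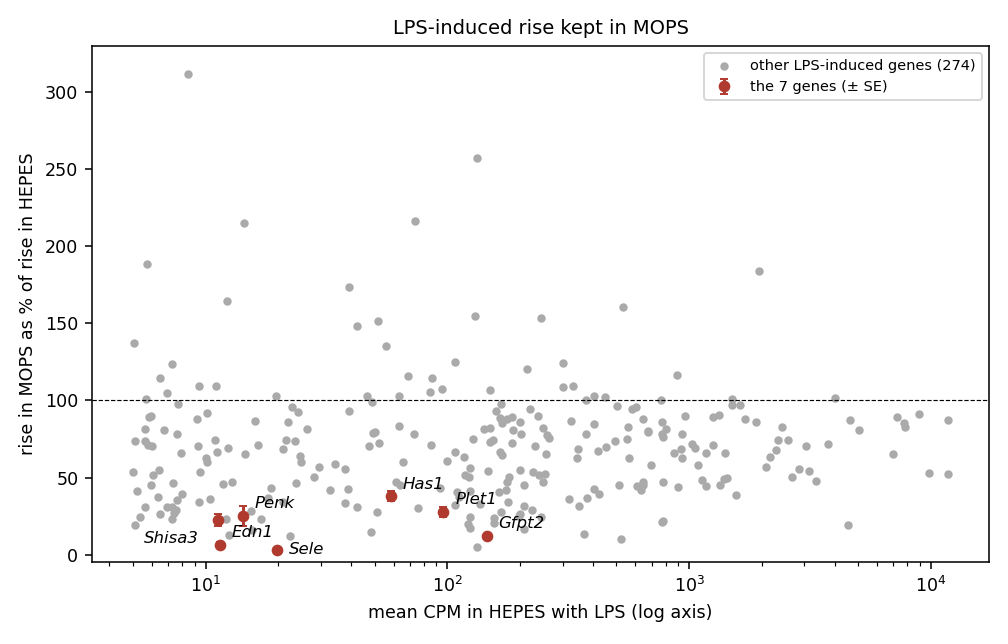
Rise under LPS in MOPS as a percentage of the rise in HEPES (vertical axis) against mean CPM in HEPES with LPS (horizontal, log axis); grey points are the other 274 LPS-induced genes, red points the 7 genes with standard errors, and the dashed line marks 100%. The 7 genes lie between 2.66% and 37.7%, at HEPES levels from 11.3 to 146 CPM, and their choice set this low place.

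Without LPS the media could be compared for few members. Penk was higher in MOPS with no overlap, as 28% of genes tested were. Gfpt2 was at 0.700 ± 0.183 CPM in MOPS and 0.831 ± 0.0695 in HEPES, and its groups overlapped (log2 -0.25 ± 0.23). Shisa3 overlapped as well, at 0.103 ± 0.0524 and 0.0578 ± 0.0729 CPM, and its log2 value of 0.83 ± 1.13 moved to 2.51 without HEPES replicate 5 and 0.25 without HEPES replicate 6. Edn1 had 1 count in MOPS against 12 in HEPES, a ratio of 0.0891 with a counting interval of 0.00208 to 0.602, and 8 of the 12 counts were in replicate 5. Its groups missed each other only narrowly, and 29.6% of genes tested were likewise below HEPES in every MOPS library. Has1 and Plet1 had 5 and 6 counts over the MOPS libraries and 0 in HEPES. With 3 counts put in place of 0 the ratios were 1.78 and 2.14. These leave out the counting error of the MOPS counts, and the MOPS range included 0. Sele had at most 1 count in either group and gives no ratio. These untreated libraries also enter the LPS change that chose the genes, so none of these differences was tested.

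Per kilobase of gene length, the scale on which genes can be set beside each other, the order in HEPES with LPS was Plet1 (49.5 ± 1.23 CPM per kb), Gfpt2 (26.1 ± 1.72), Has1 (13.0 ± 0.998), Penk (8.77 ± 0.497), Sele (6.80 ± 0.244), Edn1 (5.35 ± 0.156) and Shisa3 (2.37 ± 0.229). No neighbours in that order overlapped. In MOPS with LPS the order was Plet1 (13.8 ± 2.69 CPM per kb), Has1 (4.90 ± 0.625), Penk (3.37 ± 0.928), Gfpt2 (3.24 ± 0.646), Shisa3 (0.551 ± 0.142), Edn1 (0.342 ± 0.160) and Sele (0.185 ± 0.094). Penk and Gfpt2 overlapped there, as did Shisa3 with Edn1 and Edn1 with Sele. Gfpt2 fell from the second place to the fourth and Sele from the fifth to the last. At rest Penk led in MOPS (1.26 ± 0.120 CPM per kb) and in HEPES (0.337 ± 0.0331), Gfpt2 followed at 0.125 ± 0.0328 and 0.149 ± 0.0124, and each of the other members overlapped a neighbour in the order.

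The pathway partners of these genes, on 7 lists of 106 genes with the members left out, did not move as a block. Under LPS, 79 could be tested, and MOPS exceeded HEPES for 19 and fell short of it for 32 (edgeR, Benjamini-Hochberg adjusted p under 0.05), with a median log2 difference of -0.08. Of all genes tested, 26.9% were higher and 26.9% lower. Without LPS 21 were higher and 28 lower in MOPS, beside 24.3% and 25.4% of all genes. LPS raised 40 and lowered 19 in MOPS, beside 34.1% and 34.9% of all genes, and raised 41 and lowered 28 in HEPES, beside 35.6% and 41.2%. Of those raised, 22 in each medium were the NF-kappaB targets, listed as LPS-induced genes, so the choice of list fixed their rise. They were also 17 of the 32 that were lower in MOPS with LPS. Nothing is read from the share raised. By total counts the balance of raised and lowered turned, with 32 raised and 37 lowered in MOPS and 32 and 42 in HEPES. The LPS change was more positive in MOPS for 23 and more negative for 22, beside 21.9% and 17.6%. Each partner value below is the edgeR log2 difference of MOPS over HEPES with LPS ± its approximate standard error.

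Selp (P-selectin), a close relative of Sele that also binds leukocyte ligands, was at 23.9 ± 1.67 CPM with LPS in MOPS and 25.7 ± 4.37 in HEPES (-0.10 ± 0.088, adjusted p = 0.363, edgeR). It fell under LPS in each medium. Selplg, the ligand PSGL-1, was higher in MOPS with LPS (0.74 ± 0.045). The adhesion molecules Vcam1 and Icam1, which rose under LPS in both media, were lower in MOPS with LPS: Vcam1, at 14.5 ± 1.73 against 51.2 ± 5.18 CPM (-1.82 ± 0.097), and Icam1, at 940 ± 36.4 against 1411 ± 32.1 CPM (-0.59 ± 0.051). Over this list 2 of 13 were higher and 3 lower, but 5 were higher by total counts or without MOPS with LPS replicate 8, and 5 lower without HEPES with LPS replicate 12.

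The hyaluronan list split evenly, with 5 of 14 tested genes higher in MOPS under LPS and 5 lower. The other synthases stayed low: Has2 had at most 3 counts in any library, and Has3 was at 0.738 ± 0.311 and 0.783 ± 0.220 CPM (-0.06 ± 0.39, adjusted p = 0.904). Cd44, the main hyaluronan receptor, was lower, at 1574 ± 109 against 2658 ± 54.9 CPM (-0.76 ± 0.041). Vcan (versican), a proteoglycan that binds hyaluronan, was lower (-1.95 ± 0.095). Hmmr, a hyaluronan-binding protein of dividing cells, was higher (2.52 ± 0.40), but at only 1.38 ± 0.0587 against 0.234 ± 0.109 CPM. The hyaluronidase-family gene Hyal3 was higher too (2.08 ± 0.60), at under 1 CPM.

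In the hexosamine list 2 of 12 tested genes were higher and 5 lower, or 1 higher without HEPES with LPS replicate 12. Gfpt1, the paralog of Gfpt2, was well expressed in every group, at 108 ± 4.67 CPM with LPS in MOPS and 132 ± 6.07 in HEPES (-0.29 ± 0.044). Its LPS change was -0.02 ± 0.044 in MOPS (adjusted p = 0.731) and 0.60 ± 0.044 in HEPES. Uap1l1, a relative of the enzyme that completes UDP-N-acetylglucosamine, was lower (-0.33 ± 0.045), and Ogt, which attaches that sugar to intracellular proteins, was higher (0.82 ± 0.083). With LPS the mean CPM of Gfpt2 was above that of Gfpt1 in HEPES (146 ± 9.63 against 132 ± 6.07) but not in MOPS. In HEPES with LPS the lowest Gfpt2 library, at 135 CPM, was within the SD of Gfpt1. These CPM are not corrected for gene length, and the order of the 2 genes was not tested.

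Of 7 other endothelin genes 2 could be tested. Ece1, which cuts the precursor to the active peptide, was lower in MOPS with LPS, at 16.1 ± 0.916 against 23.2 ± 1.32 CPM (-0.53 ± 0.077). Ednrb, the endothelin B receptor, was highly expressed and higher, at 538 ± 14.3 against 270 ± 6.71 CPM (0.99 ± 0.037). The ligand genes Edn2 and Edn3 had at most 1 and 6 counts, and Ednra, the A receptor, 5 to 14 counts. Edn1 was therefore the endothelin ligand with a substantial level in HEPES with LPS only. It had 9 to 20 counts per library in MOPS with LPS and at most 8 in any untreated library. Ednrb, with at least 4824 counts in every library, was the receptor with a substantial level in all groups.

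Of 12 opioid genes 3 could be tested, with 1 higher and 0 lower: Ctsl, a protease that can process proenkephalin, at 778 ± 8.07 against 586 ± 20.1 CPM (0.41 ± 0.037). Oprm1 and Oprd1, the receptors that bind enkephalins, had at most 1 count in any library. In the list of Shisa relatives with Wnt and FGF receptors, 7 of 14 tested genes were higher and 2 lower, or 1 lower by total counts or without MOPS with LPS replicate 9. Fzd7, a Wnt receptor, was higher, at 107 ± 12.1 against 29.9 ± 1.91 CPM (1.84 ± 0.071), and Shisa5 was higher too (0.36 ± 0.038), while Shisa2 had at most 6 counts. Shisa4 (1.56 ± 0.59, adjusted p = 0.0255) lost its call without replicate 7, 9, 11 or 12, and Axin2, a Wnt target (0.62 ± 0.23, adjusted p = 0.0208), without replicate 8, 10 or 12.

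The NF-kappaB target list shows how far other LPS-induced genes differed. All 22 rose under LPS in both media, beside 34.1% of all genes in MOPS and 35.6% in HEPES. The list was made of LPS-induced genes, so nothing is read from that count. With LPS 17 were lower in MOPS and 1 higher (Birc3, named after its value was seen), or 0 higher with RLE scaling, with DESeq2 or without replicate 7, 8, 11 or 12, and the list's median was -0.42. Their largest differences were those of Traf1 (-1.23 ± 0.057), Cd40 (-1.10 ± 0.045) and Il6 (-1.04 ± 0.12), the last not called by DESeq2 (adjusted p = 0.129). Each of the 7 members differed by more than any of these 22, although the choice of members is what set that.

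**Figure D4:**
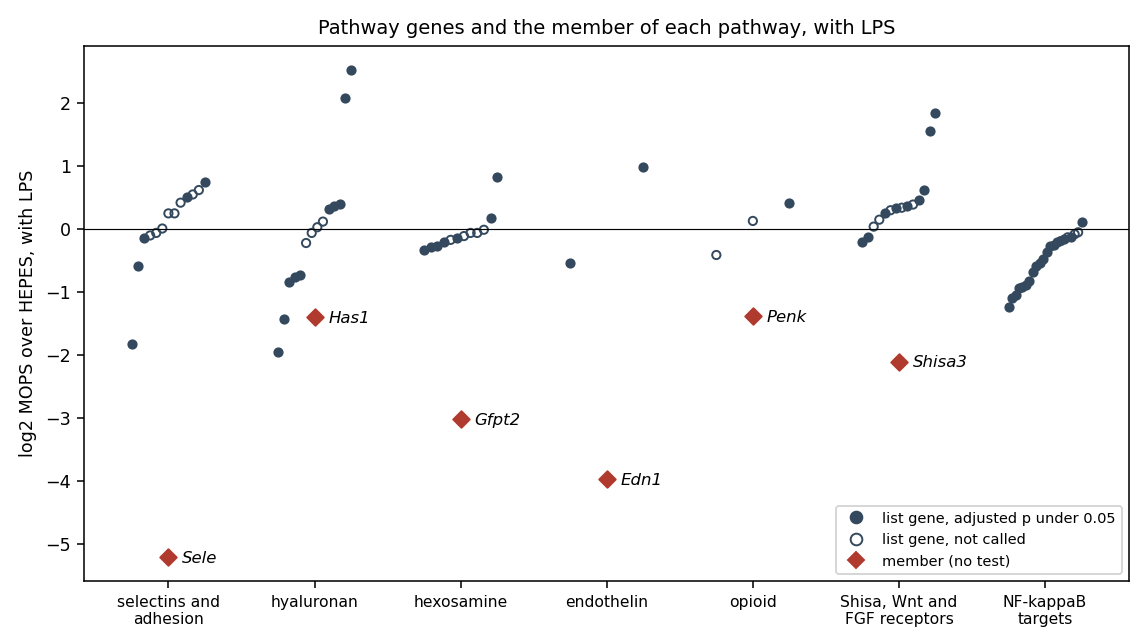
Log2 of MOPS over HEPES with LPS (vertical axis) for the tested genes of the 7 lists, filled where the adjusted p was under 0.05 in edgeR and open otherwise, with the member of each pathway as a red diamond. Sele, Gfpt2, Edn1, Penk and Shisa3 lie below all genes tested of their lists, whereas Vcan at -1.95 and Cemip at -1.42, the latter named after its value was seen, lie below Has1 at -1.40.

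Because Sele, Edn1, Has1 and Penk are also known from endothelial, mesothelial or stromal cells, markers of those cells were read in the same libraries. The summed level of 9 endothelial markers was 46.0 to 50.1 CPM in HEPES, 36.7 to 47.8 in HEPES with LPS, 13.0 to 14.8 in MOPS and 13.9 to 16.5 in MOPS with LPS, so it moved with the medium. Most of it was Vwf, at 37.6 CPM in HEPES with LPS and 12.1 in MOPS with LPS, while Cldn5 and Emcn were at 0 and Tek and Tie1 had at most 1 and 2 counts in every library. Flt1 and Cdh5 were at 2.30 and 1.09 CPM in HEPES with LPS against 0.462 and 0.287 in MOPS with LPS. Pecam1 went the other way, at 1.26 CPM in HEPES with LPS against 1.88 in MOPS with LPS. The 8 mesothelial markers summed to at most 1.65 CPM in every library. The 7 fibroblast markers summed to 17.3 to 18 CPM in HEPES with LPS and 12.5 to 15.2 in MOPS with LPS, with Lum at 0. Pdgfrb was at 8.02 against 3.42 CPM, whereas Col3a1 (2.1 against 2.91) and Dcn (1.52 against 1.98) went the other way. B cell markers summed to 24.6 to 28.4 CPM in HEPES with LPS and 114 to 125 in MOPS with LPS. The 10 macrophage markers summed to 33994 to 35645 CPM in HEPES with LPS and 21678 to 24511 in MOPS with LPS, most of it Lyz2. Csf1r (1682 in HEPES with LPS against 2151 in MOPS with LPS) and Mertk (63.2 against 129) went the other way. So did Fcgr1 and Icam2, and Adgre1 was at 977 against 983 CPM. The part of these cells in the results was not tested, and in bulk RNA fewer cells of a type and less RNA per cell cannot be told apart.

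Among 9082 genes with at least 5 CPM in HEPES with LPS, those most like the mean profile of the 7, by Pearson's r of CPM over the 12 libraries, were Errfi1 (r = 0.999), Col27a1, Sphk1 and Inhba (0.998 each), and Cd80, Dusp14, Ptgs2os2 and Gata6 (0.997 each). The libraries fall into 4 groups, so r mostly restates the group means. Errfi1, a feedback inhibitor of EGF receptors, had resting levels of 9.01 CPM (MOPS) and 8.03 CPM (HEPES) and LPS levels of 172 and 772 CPM. Inhba, which encodes a subunit of activin, was at 0.736, 1.31, 21.6 and 124 CPM in the same order. Gata6, the transcription factor of large peritoneal macrophages, differed from the members in its resting level, at 36.7 and 30.2 CPM before and 48.1 and 133 CPM with LPS. Another measure named other genes: Spearman's rho shared 0 of the 8 and Pearson's r of log2(CPM + 1) shared 1.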

How the data were processed

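RNA-seq libraries from 12 samples were made from Trizol RNA with the NEBNext Ultra kit, per the labels' protocols. The submitters' processing notes list CASAVA 1.8, HISAT2 2.0.5, featureCounts 1.5.0-p3 and build mm10 without roles. The sources used here give neither the strand setting nor the annotation release. The deposited raw counts, per the file headers, sum to 20114613 to 24734853 per library. The authors' deposited FPKM columns equal counts over gene length and a library size factor, to within 0.1% for all genes with at least 20 counts, and were an alternative scale.

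R 4.3.3 with edgeR 4.0.16 (filterByExpr, TMM, robust quasi-likelihood, a means model of 4 groups over all 12 libraries, Benjamini-Hochberg over 14506 genes) gave the tests of list genes. Its standard error is the log2 change over the root of F. It was tested on simulated data. TMM factors were near 1.2 without LPS and 0.8 to 0.9 with it. Member values are ratios of mean CPM with delta-method errors. A group with 0 counts was set to 3 counts over the group, and 1 to 3 counts gave exact conditional binomial intervals. Alternatives were RLE, total counts, no low-count filter, DESeq2 1.42.0, FPKM and leaving out each library.

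The members and lists were chosen with earlier results of these data known. Named partners were the 3 largest called differences with LPS per list, plus set paralogs and receptors. A gene that this rule names is not reported here. Some list genes carry older symbols in the table (Mgea5 for Oga, Tmem2 for Cemip2).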

Additional observations from a re-analysis of the deposited data

Results flagged for a closer look

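For some pathway partners the LPS change itself differed between the media by the edgeR interaction test. The members were left out, since that contrast chose them. Each value is the log2 LPS change in MOPS less the one in HEPES.

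A negative difference was found for Traf1 (-1.28, adjusted p = 3.93e-09), Vcam1 (-1.25, adjusted p = 0.013), Cd44 (-1.23, adjusted p = 2.73e-16), Cd40 (-0.78, adjusted p = 6.91e-10), Vcan (-0.69, adjusted p = 0.000775), Gfpt1 (-0.62, adjusted p = 2.24e-09) and Icam1 (-0.25, adjusted p = 0.0175). Vcam1 lost the call without MOPS replicate 1 (adjusted p = 0.0855) or 3 (adjusted p = 0.123). Icam1 lost it with total counts (adjusted p = 0.0715) and without replicate 2, 3, 4 or 6. For Cd44 the LPS change was 2.11 ± 0.043 in MOPS and 3.33 ± 0.045 in HEPES, so the receptor for hyaluronan rose in both media and less in MOPS.

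A positive difference was found for Hmmr (2.42, adjusted p = 0.000156), Fzd7 (1.59, adjusted p = 3.76e-11), Axin2 (1.03, adjusted p = 0.00591), Selplg (0.42, adjusted p = 1.84e-06), Uap1l1 (0.37, adjusted p = 1.69e-05), Ctsl (0.28, adjusted p = 8.56e-05) and Ednrb (0.23, adjusted p = 0.000693). Fzd7 fell by 0.60 on the log2 scale in MOPS and by 2.20 in HEPES. Hmmr was at 0.05 ± 0.27 in MOPS and fell by 2.37 in HEPES. These Hmmr values rest on few counts, with 2 in its lowest library and a mean of 0.234 CPM in HEPES with LPS.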

How the results depend on the processing

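The medium difference with LPS kept its sign in all 7 members under every scaling, with FPKM and without any 1 library. The members were chosen for this difference and their groups with LPS did not overlap. Leaving out 1 library could therefore not turn the sign, and nothing is read from its staying the same. The median difference of -2.10 ran from -2.33 to -1.98 over left-out libraries, and the median share kept of 22.5% from 19.0% to 23.8%. The median LPS change in HEPES (7.60) was 7.03 by total counts and 7.41 to 8.55 over left-out libraries, and that in MOPS (5.40) was 4.44 to 5.79. The median medium difference without LPS, over Penk, Shisa3 and Gfpt2 (0.83), was 0.25 to 1.83 over left-out libraries and so rests on few counts. Partners called lower under LPS in MOPS numbered 19, or 37 by total counts. The other counts over all 79 partners stayed within 1.5 times of their values under each alternative run, while counts in the selectin, hexosamine, Shisa and NF-kappaB lists moved as given with them. Calls gained under some alternatives included that of Selp with LPS (-0.22 without replicate 12). For the interaction they included Ogt (0.25 with DESeq2), Selp (0.30 by total counts) and Shisa5 (-0.14 without replicate 7). No paired analysis was possible because the groups share no replicate numbers. The depth, with 0 to 8 counts per untreated library for 5 of the members, limits every LPS ratio of Sele, Has1, Plet1, Shisa3 and Edn1.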

Other observations

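Values follow for nearest tested protein-coding genes beside Has1, Gfpt2, Sele and Edn1, and those of the other members are left out. Has1 lies 0.314 kb from Spaca6 and 21.3 kb from the formyl peptide receptor gene Fpr1. Both neighbours rose in HEPES under LPS (log2 4.23 and 4.70), while their medium differences with LPS did not pass the test (-0.40 ± 0.15, adjusted p = 0.0515, and 0.11 ± 0.14, adjusted p = 0.555, edgeR). Beside Gfpt2, Mapk9 at 8.14 kb was at -0.05 ± 0.05 (adjusted p = 0.408), and Cnot6 at 81.5 kb was lower in MOPS with LPS (-0.57 ± 0.04, adjusted p = 4.55e-13). Beside Sele, Mettl18 at 51.0 kb was lower (-1.43 ± 0.24, adjusted p = 5.3e-06), at 1.31 against 3.50 CPM. Hivep1, 109 kb from Edn1, rose in HEPES by 1.82 and was at -0.03 ± 0.05 between the media (adjusted p = 0.647). On the other side of Edn1, Phactr1 at 373 kb was lower in MOPS with LPS (-1.19 ± 0.32, adjusted p = 0.00252, edgeR), at 0.819 against 1.86 CPM.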
